A study of Mus musculus with 6 samples.

Results

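A group of 10 transcription factors that mark the neurons of the spinal cord and hindbrain were followed in neural progenitor cells (NPCs) with and without Ybx1. They were taken by name from the count tables, 10 of 51733 gene symbols, and comprised 4 factors of motor neurons (Isl1, Mnx1, Lhx3 and Lhx4) and 6 factors of interneurons and sensory relay neurons (Lhx1, Lhx5, Evx1, Lbx1, Tlx3 and Pou4f1). RNA was sequenced from Sox2-positive cells sorted from neural tubes of C57BL/6 mouse embryos at E13.5, in 3 control and 3 Ybx1-KO libraries. Control embryos were labelled wildtype and are described by the study as siblings. Ybx1-KO embryos were homozygous for a null allele of Ybx1, a DNA- and RNA-binding protein with a cold shock domain. By the study's methods, cells of both genotypes were sorted on a Sox2-eGFP reporter, which all 6 libraries therefore share. The sample titles carry a number that controls 1 and 2 share, that Ybx1-KO 1 and 2 share with another value, that differs in control 3 and that is lacking in Ybx1-KO 3, so that this number and the genotype cannot be told apart. No label says whether the libraries of a genotype came from separate embryos or litters, and p-values below measure only the spread between these libraries.

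The developing spinal cord and hindbrain are laid out in progenitor domains along the dorsal to ventral axis. As a progenitor leaves the cell cycle it switches on a set of homeodomain factors that fixes which neuron it becomes, and LIM homeodomain proteins such as Isl1, Lhx1 and Lhx3 act in these sets together with the adaptor Ldb1. Within the spinal cord and hindbrain, these factors therefore mark young neurons of a given type, not dividing progenitors. The libraries also held RNA of forebrain genes, and the region from which the RNA of the factors came was not tested.

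Ybx1 belongs to the Y-box proteins, named for binding the Y-box, a promoter element built on an inverted CCAAT box. The 250 bases before the start site are shown for 5 of the factors: the 4 whose promoter held CCAAT, and Evx1, which held none and whose groups did not overlap in expression. The sequences are from RefSeq on GRCm38.p6, written 5′ to 3′ on the strand of the gene, and capitals mark CCAAT or its reverse complement ATTGG.
Lhx1 (chr11:84525535-84525784, minus strand): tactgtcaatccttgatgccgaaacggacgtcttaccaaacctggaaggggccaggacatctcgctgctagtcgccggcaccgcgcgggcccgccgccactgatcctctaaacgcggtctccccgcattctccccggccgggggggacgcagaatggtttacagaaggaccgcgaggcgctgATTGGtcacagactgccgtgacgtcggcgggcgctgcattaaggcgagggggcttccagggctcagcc
Mnx1 (chr5:29478471-29478720, minus strand): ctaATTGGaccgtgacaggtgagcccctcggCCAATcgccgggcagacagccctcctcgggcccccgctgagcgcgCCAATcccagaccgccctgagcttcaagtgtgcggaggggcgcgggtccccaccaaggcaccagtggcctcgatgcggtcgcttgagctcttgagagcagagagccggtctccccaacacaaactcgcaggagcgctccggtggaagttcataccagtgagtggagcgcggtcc
Isl1 (chr13:116309689-116309938, minus strand): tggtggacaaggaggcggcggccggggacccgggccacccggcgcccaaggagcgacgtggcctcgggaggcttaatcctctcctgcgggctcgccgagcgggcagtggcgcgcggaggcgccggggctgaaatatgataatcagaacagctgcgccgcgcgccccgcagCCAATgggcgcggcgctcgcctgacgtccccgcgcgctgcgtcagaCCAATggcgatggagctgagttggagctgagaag
Tlx3 (chr11:33203589-33203838, minus strand): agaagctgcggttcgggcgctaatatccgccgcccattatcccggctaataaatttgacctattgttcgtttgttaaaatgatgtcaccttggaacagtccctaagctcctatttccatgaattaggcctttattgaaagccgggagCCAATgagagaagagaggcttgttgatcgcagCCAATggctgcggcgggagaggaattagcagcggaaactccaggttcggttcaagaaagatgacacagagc
Evx1 (chr6:52313248-52313497, plus strand): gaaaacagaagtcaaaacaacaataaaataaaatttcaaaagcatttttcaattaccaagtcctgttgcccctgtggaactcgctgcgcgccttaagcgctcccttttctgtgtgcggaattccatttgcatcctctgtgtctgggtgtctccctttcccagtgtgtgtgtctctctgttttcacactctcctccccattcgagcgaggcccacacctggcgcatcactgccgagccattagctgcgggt
Promoter entries were found for 8 of the 10 factors. CCAAT, searched on both strands from 250 bases before to 50 bases after the start, was present in 4 of the 8 factors, beside 37.4% of 32544 promoters of the same length. In Lhx1 the match lay 68 bases before the start and was part of the longer Y-box core CTGATTGG, which only 1 of the 8 factors held, beside 4.07% of all promoters. Tlx3 held matches 103 and 71 bases before the start, Isl1 at 80 and 34 bases, and Mnx1 at 247, 219 and 174 bases. The homeodomain core TAATTA, a palindrome, was present in 0 of the 8 factors and in 5.29% of all promoters. A match describes the letters in this window, and binding at these promoters was not analysed here. On GRCm38 the other factors lie at chr2:26200212-26208289 (Lhx3), chr1:155698031-155751684 (Lhx4), chr5:120431699-120441223 (Lhx5), chr19:45232684-45235812 (Lbx1) and chr14:104461676-104467999 (Pou4f1), and all 10 are protein-coding genes. GC content ran from 48.7% (Evx1) to 78.3% (Pou4f1), beside a median of 53% over all promoters.

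Reads counted on genes numbered 20841990 to 23883542 per control library and 4743279 to 13321952 per Ybx1-KO library, so 3 counts corresponded to 0.138 to 0.4197 CPM (counts scaled to library size after TMM normalization, the scale of every CPM below). Ybx1 itself was at 235, 523 and 301 CPM in the controls and at 124, 54.5 and 9.51 CPM in the knockouts. The groups did not overlap, with a log2 fold change of -2.49 (SE 0.675). The edgeR quasi-likelihood fit gave an adjusted p of 0.302, and an exact permutation test (two-sided) gave p = 0.1, the smallest that 3 against 3 libraries can give. Of the progenitor markers, 12 of 12 passed the filter on low values, their sum ranged from 1532 to 1736 CPM in controls and from 1195 to 1933 CPM in knockouts, and Sox2, the gene sorted on, was at 17.2 to 47.6 and 23.8 to 49.8 CPM. Single markers differed: 3 of the 12 were higher in every knockout, Nes among them, beside 4.99% of all genes tested. Slc1a3 was lower in every knockout. Nes was at 52.6 to 128.6 and 165 to 283 CPM, and Slc1a3 at 36.4 to 91.8 and 14.3 to 23.5 CPM. Their adjusted p was 0.387 and 0.2365 in the edgeR quasi-likelihood fit. Pan-neuronal genes were present too, at 4057 to 7770 and 2575 to 6255 CPM, so the sorted cells held neuronal RNA in every library. No marker of the listed cell types was at 0 in all 6 libraries. Ybx1-KO 3 held a count on 39553 of the 51733 genes, so this says little about which cell types were present.

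A pair of libraries stood apart. Control 2 lay with the knockouts rather than with the other controls in several region markers: its summed Hox level was 1051 CPM, beside 128 and 320 CPM in controls 1 and 3 and 666 to 1362 CPM in the knockouts. Its summed forebrain level was 287 CPM, beside 1598 and 1700 CPM in controls 1 and 3 and 167 to 401 CPM in the knockouts. The embryonic globins made up 94.6% of its globin counts, against 21.0% and 34.9% in the other controls and 88.2% to 96.0% in the knockouts. Ybx1-KO 3 was the shallowest library, had 8.24 read pairs outside genes for each count on genes (1.41 to 2.00 in the other libraries), and held counts on 81.9% of 1729 olfactory, vomeronasal and taste receptor genes (2.43% to 29.0% elsewhere). The factors are therefore given with and without these libraries.

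Across the 10 factors the Ybx1-KO mean was higher for 9, and none passed the test. All 10 were tested, after a filter that kept genes with a mean above 1 FPKM (fragments per kilobase of exon, scaled to library size) in either group. Calls from edgeR's quasi-likelihood test needed both an adjusted p under 0.05 and more than 1.5 times the level of the other group, and 0 of the 10 were called, beside 0 of 21330 genes tested (0%). The log2 fold change was positive for 9 of 10 factors and for 61.3% of all genes tested, with medians of 1.23 over the factors and 0.31 over all genes. An unadjusted p below 0.05 was reached by 1 factor, Lhx5, beside 6.96% of all genes in the same direction. Knockouts and controls were fully separated, with the knockouts higher, for 2 factors, Mnx1 and Evx1, beside 4.99% of all genes. 4 factors (Mnx1, Lhx3, Lhx4 and Evx1) passed the filter through the knockout group alone, with control means of 0.1004, 0.243, 0.657 and 0.927 FPKM, so for these a higher knockout mean was built into being tested.

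**Figure D1:**
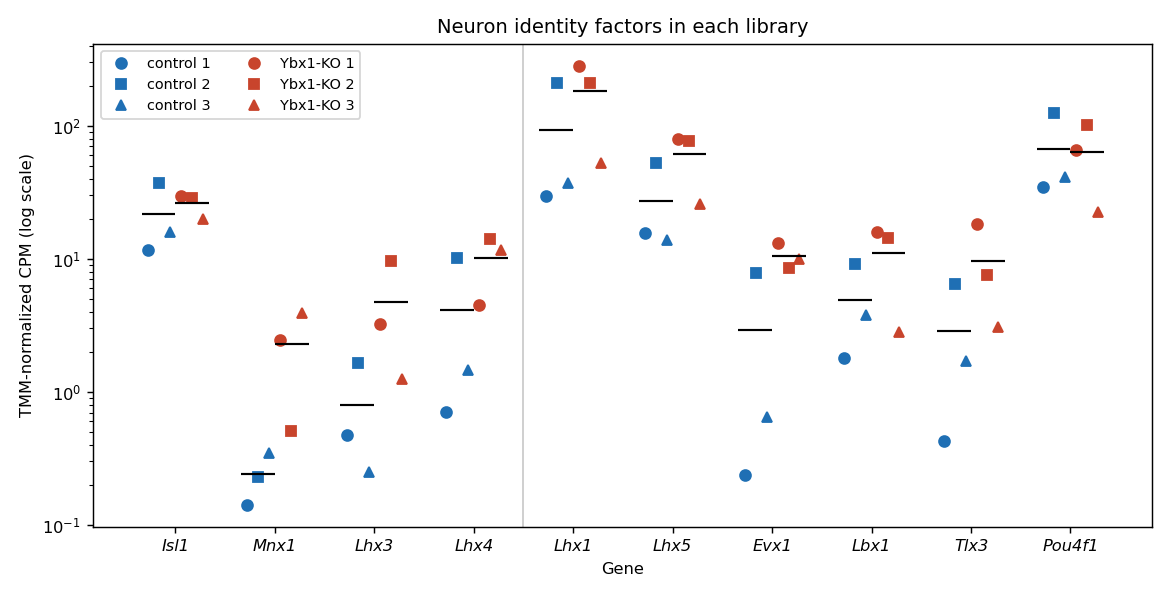
TMM-normalized CPM (log scale) of the 10 factors in each of the 6 libraries, motor neuron factors left of the grey line and interneuron factors right of it. Blue marks are controls, red marks Ybx1-KO, circles, squares and triangles libraries 1, 2 and 3, and black bars the group means. The blue square, control 2, is the highest control in 9 of 10 factors.

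Among the motor neuron factors, Isl1, which is needed for motor neurons to form and is also found in dorsal interneurons and sensory neurons, was the most abundant per length. It was at 11.7, 36.9 and 16.01 CPM in the controls and 29.8, 28.8 and 19.9 CPM in the knockouts. Control 2 was the highest of all 6 libraries and the groups overlapped. The log2 fold change was 0.28 (SE 0.449), below the median of all genes, and the edgeR quasi-likelihood fit gave an adjusted p of 0.776. It was 0.92 (SE 0.495) without control 2 and 0.47 (SE 0.498) without Ybx1-KO 3.

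Mnx1 (also called Hb9), which keeps motor neurons from taking interneuron fates, was the least abundant factor in the controls. It was at 0.142, 0.230 and 0.350 CPM in the controls and 2.46, 0.511 and 3.92 CPM in the knockouts, from 3, 5 and 7 counts and 22, 5 and 28 counts. The groups did not overlap in CPM, although Ybx1-KO 2 held no more counts than control 2. The log2 fold change was 3.21 (SE 1.71, edgeR quasi-likelihood adjusted p 0.450). Without control 2 it was 3.18 (SE 2.34), and without Ybx1-KO 3 the gene fell under the filter on low values.

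Lhx3 and Lhx4, the LIM homeodomain pair that specifies motor neurons whose axons leave the cord ventrally and, for Lhx3, V2a interneurons, both had higher knockout means. Lhx3 was at 0.472, 1.66 and 0.250 CPM in the controls and 3.24, 9.71 and 1.26 CPM in the knockouts. Only the lowest knockout library, Ybx1-KO 3 with 9 counts, lay below the highest control. Lhx3 had a log2 fold change of 2.57 (SE 1.22, edgeR quasi-likelihood adjusted p 0.444), or 3.69 (SE 1.70) without control 2 and 3.02 (SE 0.971) without Ybx1-KO 3. Lhx4 was at 0.708, 10.2 and 1.45 CPM in the controls and 4.47, 14.1 and 11.6 CPM in the knockouts, with a log2 fold change of 1.29 (SE 0.840, adjusted p 0.490 in the same test). Control 2 was within the knockout range and the other controls were below it. Without control 2 the Lhx4 value was 3.22 (SE 0.991), and without Ybx1-KO 3 it was 1.19 (SE 0.981).

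Among the interneuron factors, Lhx1 (Lim1), a LIM homeodomain factor of several dorsal and ventral interneuron classes and of lateral motor columns, had the highest mean FPKM of all 10 in both groups, although in control 1 Pou4f1 was higher (7.50 against 7.34 FPKM). It was at 29.4, 209.6 and 37.4 CPM in the controls and 281, 209.3 and 52.6 CPM in the knockouts. Control 2 and Ybx1-KO 2 were nearly equal, and Ybx1-KO 3 was nearer to controls 1 and 3 than to the other knockouts. The log2 fold change was 0.97 (SE 0.683, edgeR quasi-likelihood adjusted p 0.512), 2.44 (SE 0.636, adjusted p 0.110) without control 2 and 1.45 (SE 0.698) without Ybx1-KO 3.

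Lhx5, the close relative of Lhx1 that shares its interneuron classes, was at 15.5, 52.8 and 13.8 CPM in the controls and 80.0, 76.8 and 25.9 CPM in the knockouts. Its pattern over the libraries was like that of Lhx1, with control 2 above Ybx1-KO 3. Its log2 fold change was 1.15 (SE 0.535), for which edgeR's quasi-likelihood test gave a p of 0.0461 before and 0.444 after adjustment. It was 2.06 (SE 0.539, adjusted p 0.115) without control 2 and 1.54 (SE 0.536) without Ybx1-KO 3. The ratio of Lhx1 to Lhx5 counts was 1.89, 3.97 and 2.71 in the controls and 3.52, 2.73 and 2.03 in the knockouts, overlapping between the groups.

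Evx1, an even-skipped homeodomain factor that sets the fate of V0 commissural interneurons, was at 0.236, 7.88 and 0.650 CPM in the controls and 13.1, 8.48 and 9.93 CPM in the knockouts. All knockouts were above all controls, but control 2 was close to the lowest knockout and far above the other controls. Scaled by total counts alone, the Evx1 groups overlapped, and those of Lhx3 did not. The log2 fold change was 1.84 (SE 0.937, edgeR quasi-likelihood adjusted p 0.450, p = 0.1 in the exact permutation test). Without control 2 it was 4.55 (SE 1.05, adjusted p 0.0661), the largest among the 10 factors in that fit, and without Ybx1-KO 3 it was 1.92 (SE 1.09). Controls 1 and 3, which remain without control 2, held 5 and 13 Evx1 counts. In control 1 the level of Evx1 (0.0834 FPKM) was below the 95th percentile of the receptor genes in that library (0.0865 FPKM).

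Lbx1 and Tlx3 are the factors by which dorsal horn neurons divide into inhibitory classes, which depend on Lbx1, and excitatory ones, where Tlx3 acts. Lbx1 was at 1.80, 9.08 and 3.75 CPM in the controls and 15.9, 14.4 and 2.80 CPM in the knockouts, with a log2 fold change of 1.18 (SE 0.719, edgeR quasi-likelihood adjusted p 0.477). Ybx1-KO 3 was below control 3, whereas the other knockouts were above all controls. Tlx3 was at 0.425, 6.45 and 1.70 CPM in the controls and 18.3, 7.56 and 3.08 CPM in the knockouts, with a log2 fold change of 1.75 (SE 0.890, adjusted p 0.450). Control 2 was the only control inside the knockout range. Without control 2 the values were 2.00 (SE 0.879) for Lbx1 and 3.18 (SE 1.08) for Tlx3, and without Ybx1-KO 3 they were 1.66 (SE 0.661) and 2.22 (SE 0.911).

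Pou4f1 (Brn3a), a POU factor of sensory neurons and of early dorsal relay interneurons, was the exception in direction. It was at 34.5, 123.6 and 41.4 CPM in the controls and 66.1, 100.9 and 22.4 CPM in the knockouts. Control 2 was the highest and Ybx1-KO 3 the lowest library. Its log2 fold change was -0.07 (SE 0.545, edgeR quasi-likelihood adjusted p 0.961) and turned to 0.74 without control 2 and 0.35 without Ybx1-KO 3, none of them called.

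Per length, the order of the control means was Lhx1 (20.9 FPKM), Pou4f1 (13.3), Lhx5 (9.49), Isl1 (5.07), Lbx1 (1.82), Tlx3 (1.71), Evx1 (0.927), Lhx4 (0.657), Lhx3 (0.243) and Mnx1 (0.1004). In the knockouts Lhx1 (43.4 FPKM) was again highest, followed by Lhx5 (22.3), Pou4f1 (12.7), Isl1 (6.95), Tlx3 (6.42), Lbx1 (4.23), Evx1 (4.05), Lhx4 (1.89), Lhx3 (1.36) and Mnx1 (1.31). Neighbours in these orders overlapped over the libraries, and within Ybx1-KO 3 the levels of Mnx1, Lhx3, Lhx4, Lbx1 and Tlx3 (0.623 to 3.05 FPKM) were below the 95th percentile of the receptor genes in that library, 3.31 FPKM. Those of Evx1, Pou4f1, Isl1, Lhx5 and Lhx1 (5.20 to 19.5 FPKM) were above it. The part of the receptor-gene counts in the low factors was not tested. Lhx1, Pou4f1, Lhx5 and Isl1 made up 92.3% to 96.0% of the summed CPM of the 10 factors in controls and 78.7% to 88.9% in knockouts.

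The fold changes depended on control 2. It was the highest control for 9 of 10 factors and lay above the lowest knockout for 8. Without it, all 3 knockouts were above both remaining controls for 8 of 10 factors, beside 8.46% of all genes, and the median log2 fold change was 2.81, beside 0.33 over all genes. Leaving out the highest control widens the difference by construction, so these values lend no support of their own. Mnx1, Lhx3, Lhx4 and Evx1, all among the 8, passed the filter with all libraries through the knockouts alone. In that fit 0 of the 10 factors were called in edgeR's quasi-likelihood test, beside 29 of 21508 genes called higher (0.135%). With Ybx1-KO 3 left out as well, a choice made after seeing the data, 3 factors were called, beside 57 of 15447 genes called higher (0.369%). These were Lhx1 (log2 fold change 2.85, SE 0.482, adjusted p 0.00947), Lhx5 (2.39, SE 0.474, adjusted p 0.0258) and Evx1 (4.56, SE 1.01, adjusted p 0.0461), in a fit of 2 against 2 libraries. The libraries left out were the highest control for 9 of the 10 factors and the lowest knockout for 7, Lhx1 and Lhx5 among them, so leaving them out widens the difference by construction, and Evx1 passed the filter with all libraries through the knockouts alone. In that fit Evx1 rested on 5 and 13 counts in controls 1 and 3.

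**Figure D2:**
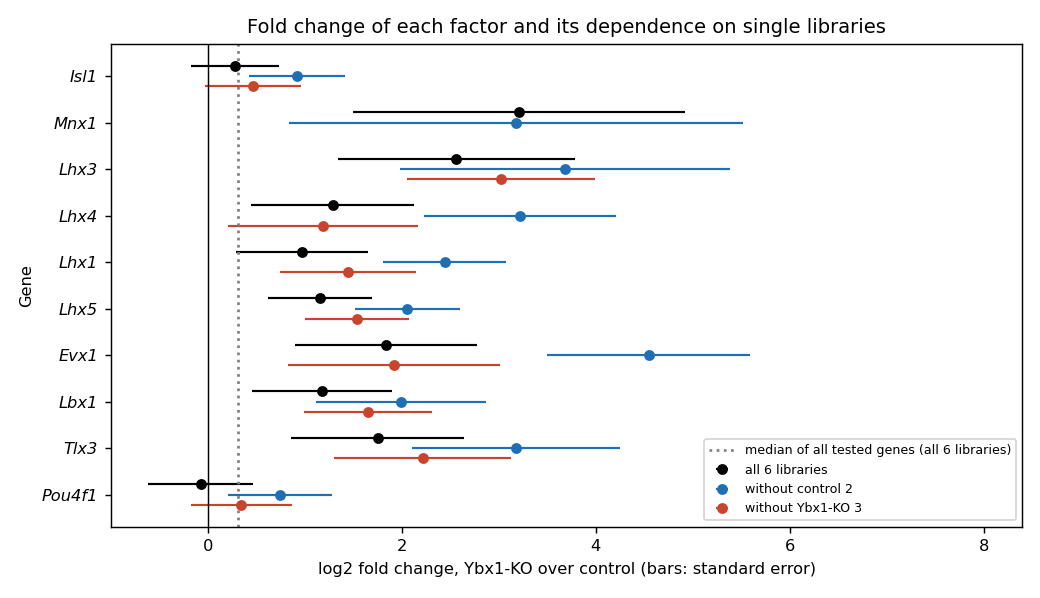
Log2 fold change of Ybx1-KO over control for each factor with all 6 libraries (black), without control 2 (blue) and without Ybx1-KO 3 (red), with bars of 1 standard error and the median of all tested genes as a dotted line. Without control 2 the point moves right for 9 of 10 factors, most for Evx1 (1.84 to 4.55), and Mnx1 has no point without Ybx1-KO 3 because it fell under the filter.

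Summed over the 10 factors, the level was 94.9, 458 and 117 CPM in the controls and 515, 471 and 153 CPM in the knockouts, a ratio of means of 1.70. Control 2 lay among the knockouts and Ybx1-KO 3 near controls 1 and 3. As a percentage of the summed pan-neuronal genes, genes of neurons in general, the factors stood at 2.34%, 5.90% and 2.46% in the controls and 8.23%, 8.37% and 5.95% in the knockouts. All knockouts were above all controls on this measure, although control 2 and Ybx1-KO 3 differed little. The pan-neuronal sum was itself highest in control 2 (7770 CPM). As a percentage of the summed Hox genes they stood at 74.1%, 43.6% and 36.5% in the controls and 39.2%, 34.6% and 23.0% in the knockouts, where the groups overlapped and the knockout mean was lower. In bulk samples a change in the number of such neurons and a change in RNA per cell cannot be told apart.

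**Figure D3:**
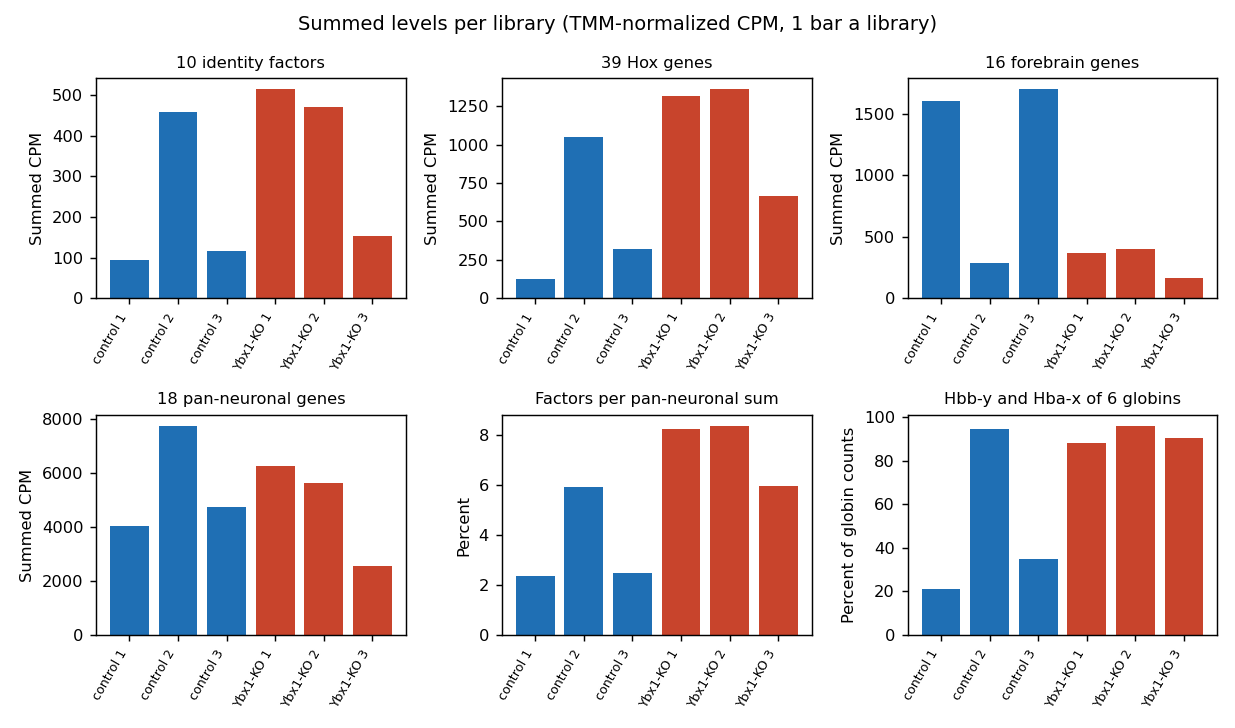
Summed TMM-normalized CPM per library for the 10 factors, 39 Hox genes, 16 forebrain genes and 18 pan-neuronal genes, then the factors as percent of the pan-neuronal sum and the embryonic globins (Hbb-y and Hba-x) as percent of all counts on 6 globin genes. Each bar is 1 library, blue for control and red for Ybx1-KO. Control 2 lies within the knockout range for the factors, the Hox genes, the forebrain genes and the embryonic globin share.

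Region and cell type markers differed over the same libraries. Of the Hox genes, which mark hindbrain and spinal levels, 33 of 35 tested had positive log2 fold changes (median 1.19), beside 61.3% of all genes tested. An unadjusted p below 0.05 was reached by 12 of them, all higher, beside 6.96% of all genes in the same direction. Hoxb2, a hindbrain Hox gene, had a log2 fold change of 2.56 (SE 0.583, edgeR quasi-likelihood adjusted p 0.208) and Hoxb1 of 3.72 (SE 1.18, adjusted p 0.388), both without overlap between groups. Every knockout was above every control for 3 of the 35 Hox genes tested, beside 4.99% of all genes. Of the Hox genes 8 passed the filter through the knockouts alone, Hoxb1 among them. Without control 2, 6 were called higher in edgeR's test, beside 29 of 21508 genes (0.135%). In that fit Hoxb2 was at 3.71 (adjusted p 0.00178) and Hoxb1 at 7.46 (adjusted p 0.00883). Of the 16 forebrain genes tested, 13 had negative values (median -2.23), among them Neurod6 (-4.87) and Neurod2 (-3.70), each with an adjusted p of 0.168 in the same test. Of these 16 genes 1 passed the filter through the controls alone. In edgeR fits without control 2, and with all 6 libraries but no filter on low counts, 8 forebrain genes were called lower in each, where Neurod6 had adjusted p of 0.000456 and 1.98e-09. Over all genes, these fits called 44 of 21508 and 80 of about 42830 genes lower. With no filter, 2 Hox genes were called higher, Hoxb2 (adjusted p 0.00155) and Hoxb1 (adjusted p 0.0218), beside 113 genes called higher in that fit. Of the mesenchyme and meninges markers 0 of 8 tested were higher in knockouts (summed 169 to 916 CPM in controls, 94.6 to 157 CPM in knockouts). Of these 8 genes 1 passed the filter through the controls alone. The sums of peripheral sensory neuron genes, which include cells that express Isl1, Tlx3 and Pou4f1, ranged from 208 to 244 CPM in controls and 204 to 211 CPM in knockouts. The erythroid sums were 515 to 1199 CPM in controls and 191 to 1163 CPM in knockouts, and the endothelial sums 24.1 to 45.1 and 11.9 to 69.8 CPM. Of the retina markers, which hold a relative of Pou4f1, 2 of 8 passed the filter, and the 8 summed to 16.7 to 29.4 CPM in controls and 14.1 to 32.9 CPM in knockouts. The part of these differences in the levels of the factors was not tested.

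Wider lists of spinal and hindbrain neuron genes (motor neuron companions, ventral and dorsal interneuron genes, and hindbrain branchial and visceral genes) were set beside the 10 factors, and none of their 41 tested genes was called by edgeR with all 6 libraries and the filter on low values. With no filter, 1 of them was called, Foxd3, beside 113 genes called higher and 80 lower. Without control 2, 29 of 21508 genes were called higher and 44 lower. For the lists that follow, 61.3% of all genes tested had positive log2 fold changes. At an unadjusted p below 0.05, 6.96% of all genes tested were higher, and 910 of 21330 were lower. Of the motor neuron companions, genes for the effector and survival functions of motor neurons, 8 of 9 tested had positive log2 fold changes (median 0.92), 1 of them at an unadjusted p below 0.05. However, 4 of the 9, Chat, Slc18a3 and Isl2 among them, passed the filter through the knockouts alone, which fixes their sign. Chat, which makes acetylcholine, had a log2 fold change of 2.79 (SE 1.34), and Slc18a3, which loads it into vesicles, of 2.70 (SE 0.994). Isl2, the partner of Isl1 in motor neurons, had a log2 fold change of 2.27 (SE 1.46), with adjusted p of 0.446, 0.432 and 0.490 for the 3 genes in edgeR's quasi-likelihood test. Chat was highest in Ybx1-KO 3 (10.9 CPM, against 1.23 and 2.35 CPM in the other knockouts and 1.47 CPM in control 2), and without that library it fell under the filter.

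Of the ventral interneuron factors 10 of 12 had positive log2 fold changes (median 1.18), 4 at an unadjusted p below 0.05, and 3 passed the filter through the knockouts alone. Evx2, the neighbour of Evx1 in function and a V0 marker, was at 0.897, 16.2 and 1.25 CPM in the controls and 42.8, 7.77 and 16.9 CPM in the knockouts, with a log2 fold change of 1.88 (SE 0.860, edgeR quasi-likelihood adjusted p 0.444). Control 2 was again inside the knockout range, and without it Evx2 was called (4.38, SE 0.778, adjusted p 0.00599). Vsx1, a marker of V2 interneurons, had a log2 fold change of 2.54 (SE 1.46), and fell under the filter without Ybx1-KO 3. Of the 17 spinal progenitor domain genes, which act before the 10 factors, 17 had positive values (median 1.54) and 8 an unadjusted p below 0.05, with Dbx2 at 2.17, Irx3 at 2.10 and Ptf1a at 2.06, but 5 of the 17 passed the filter through the knockouts alone. Dbx2 was high in Ybx1-KO 3 only (14.7 CPM), with Ybx1-KO 1 and 2 (1.67 and 0.920 CPM) inside the control range of 0.6002 to 2.26 CPM, and it fell under the filter without that library. Irx3 was called with no filter (2.02, adjusted p 0.0467 in edgeR's test), beside 113 genes called higher in that fit. It was at 3.26, 7.88 and 3.95 CPM in the controls and 44.65, 7.56 and 12.59 CPM in the knockouts. Control 2 lay above Ybx1-KO 2, so the Irx3 groups overlapped, and Ybx1-KO 1 was far above the other libraries.

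Of the dorsal interneuron and relay genes 8 of 13 tested had positive log2 fold changes (median 0.08), and at an unadjusted p below 0.05 1 was higher and 2 were lower. Of the 13, 2 passed the filter through the knockouts alone, Foxd3 among them, and 1, Prrxl1, through the controls alone. For these the sign was built into being tested. Foxd3, a forkhead factor of V1 and dorsal interneurons and of the neural crest, was at 0.897, 4.24 and 0.6002 CPM in the controls and 28.8, 17.4 and 8.25 CPM in the knockouts. The groups did not overlap, and its log2 fold change was 3.24 (SE 0.739, edgeR quasi-likelihood adjusted p 0.208) with all libraries and 4.59 (SE 0.805, adjusted p 0.00525) without control 2. With no filter on low counts it was 3.17 (adjusted p 0.000689) and was called. Bhlhe22 and Prrxl1, which mark dorsal horn neurons, had log2 fold changes of -1.79 (SE 0.539) and -1.53 (SE 0.835), and Bhlhe22 was called without control 2 (-2.23, adjusted p 0.0381). The groups overlapped for both with all 6 libraries. Bhlhe22 was at 39.4, 8.62 and 46.0 CPM in the controls and 10.4, 10.8 and 5.88 CPM in the knockouts. Its control 2 level lay inside the knockout range, as for the summed forebrain genes. All 7 hindbrain branchial and visceral genes tested had positive values (median 1.36), with Hmx3 at 3.69 (SE 1.70), Hmx2 at 2.37 (SE 1.22) and Phox2a, a factor of visceral motor neurons, at 1.96 (SE 1.30). Of these 7 genes 5 passed the filter through the knockouts alone, those 3 among them, so that their sign was fixed by the filter, and Phox2a fell under it without Ybx1-KO 3.

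The other LIM homeodomain genes were mixed, with 3 of 7 tested positive. Of these 7 genes 1 passed the filter through the knockouts alone and 2, Lhx6 and Lhx8, through the controls alone, which fixes their sign. Lhx6 and Lhx8, which mark neurons born in the ventral forebrain, had log2 fold changes of -3.21 (SE 1.00, edgeR quasi-likelihood adjusted p 0.382) and -2.77 (SE 1.21, adjusted p 0.444). Control 2 lay inside the knockout range for both, at 2.63 CPM for Lhx6 (knockouts 0.112 to 8.11 CPM). Lhx6 was called without control 2 (-3.75, adjusted p 0.0335) and with no filter (-3.50, adjusted p 1.67e-06). Of the LIM cofactors, the adaptors and inhibitors through which these proteins act, 1 of 10 was positive (median -0.56). Ldb2 was at 37.5, 15.3 and 41.2 CPM in the controls and 5.47, 8.38 and 13.0 CPM in the knockouts. All knockouts were below all controls, and the log2 fold change was -1.81 (SE 0.479, adjusted p 0.286 in the same test), or -1.99 (adjusted p 0.0335) and called with no filter. Lmo1, a LIM-only protein that competes for Ldb adaptors, had a log2 fold change of -1.87 (SE 0.563, adjusted p 0.362).

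**Figure D4:**
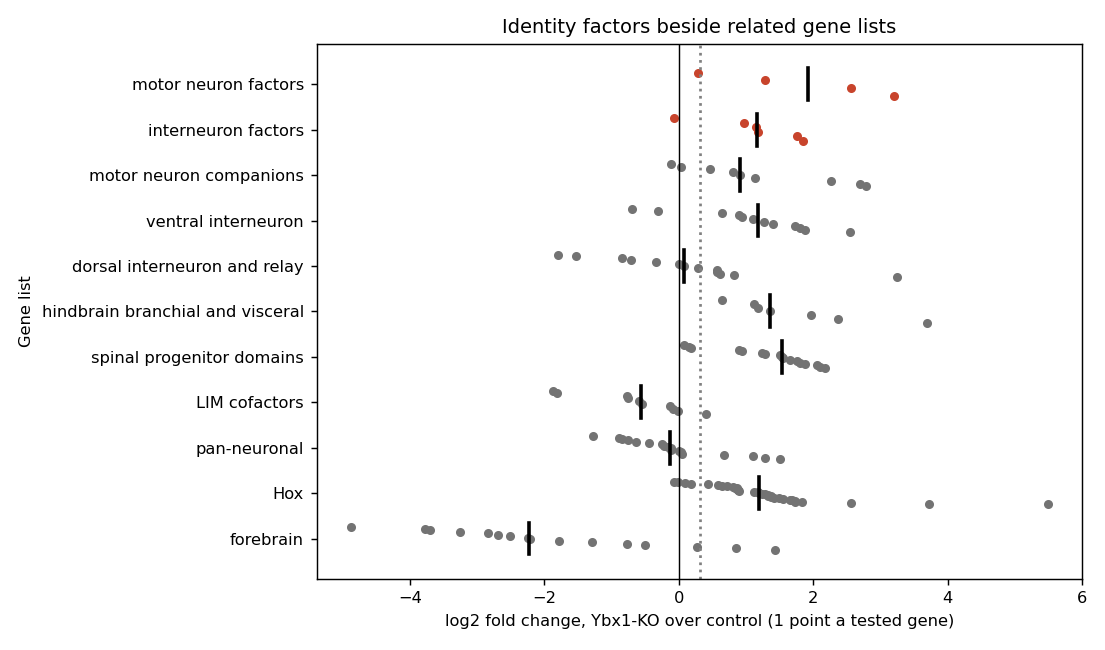
Log2 fold change (all 6 libraries) of each tested gene by list, 1 point a gene, with black bars at the list median and a dotted line at the median of all tested genes. The 4 motor neuron and 6 interneuron factors are in red; the lists of motor neuron companions, ventral interneuron, hindbrain, spinal progenitor and Hox genes lie mostly right of 0, and the forebrain list mostly left (median -2.23).

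**Figure D5:**
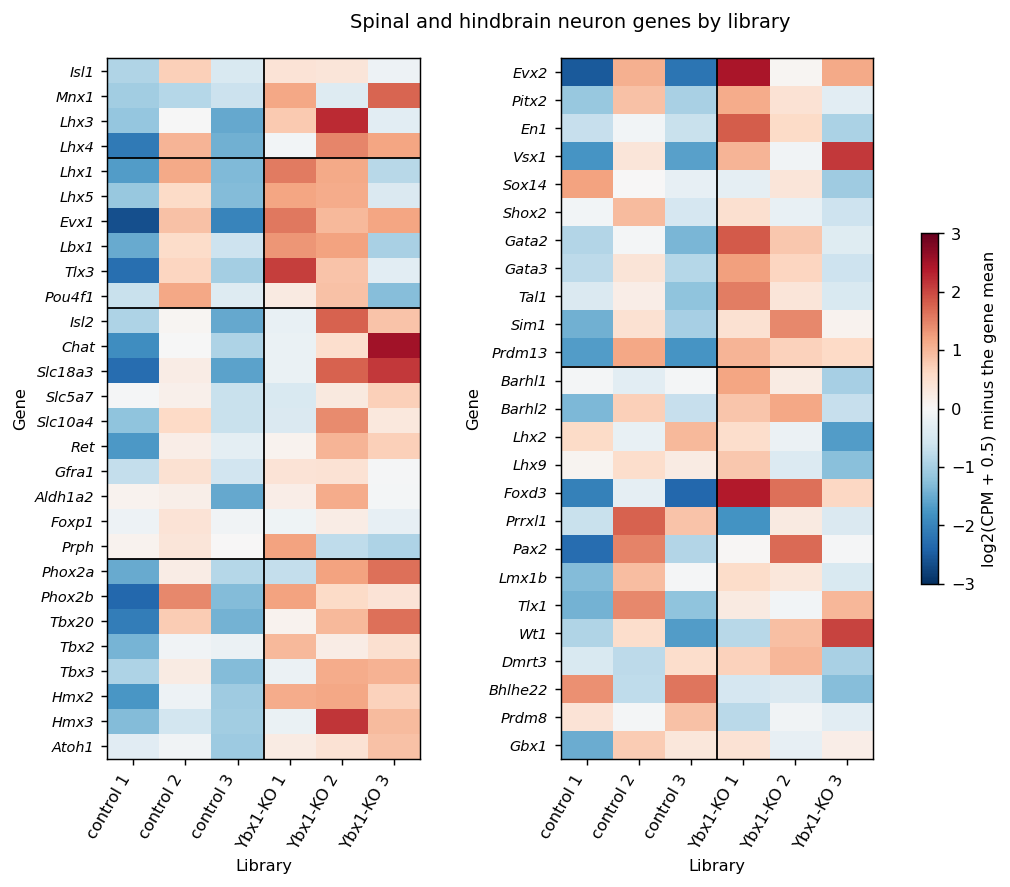
Level of each of the 10 factors and of genes of the 4 wider lists (motor neuron companions, hindbrain genes, ventral interneuron and dorsal interneuron factors) in each library, as log2(CPM + 0.5) minus the mean over the 6 libraries. Blue is below and red above the mean of the gene; the line divides controls from knockouts. The control 2 column is red for 8 of 10 factors and control 1 and 3 columns are blue for all 10.

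Lhx1 and Evx1 have non-coding neighbours read from the opposite strand. Lhx1os starts 125 bases from Lhx1 on the other strand, within the Lhx1 promoter printed above, and shares no exon with it. Lhx1os was at 9.92, 21.1 and 13.0 CPM in the controls and 140, 40.1 and 32.5 CPM in the knockouts. All knockouts were above all controls, unlike for Lhx1, and the log2 fold change was 2.27 (SE 0.532, edgeR quasi-likelihood adjusted p 0.235). With no filter on low counts the adjusted p was 0.00788 and it was called. Lhx1os counts per Lhx1 count were 0.337, 0.101 and 0.348 in the controls and 0.498, 0.191 and 0.617 in the knockouts, overlapping between the groups.

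Evx1os starts 1334 bases from Evx1 and shares 73 exon bases with it. It was at 0.283, 9.49 and 0.350 CPM in the controls and 7.93, 5.52 and 5.04 CPM in the knockouts, with a log2 fold change of 0.87 (SE 1.07, edgeR quasi-likelihood adjusted p 0.710). Control 2 was the highest of all libraries. A pair of antisense genes overlap the LIM factors: Gm27196 shares 188 exon bases with Lhx3 and Gm27199 shares 69 with Lhx5. Both were higher in every knockout than in every control, beside 4.99% of all genes tested. Their log2 fold changes were 1.77 (SE 0.860) and 2.52 (SE 0.734), with adjusted p of 0.448 and 0.356 in edgeR's quasi-likelihood test. Gm27196 passed the filter through the knockouts alone, which fixes its sign. The strand setting of the counting is not given in the sources used here, so reads of a gene and its antisense partner may have been counted together or left out as ambiguous.

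Finally, the profiles over the 6 libraries were compared by the root-mean-square difference of centred log2 values, which gives no sign of shared function. Lhx1 and Lhx5 were the closest pair among the factors (0.388), followed by Lhx5 and Lbx1 (0.397) and Lhx1 and Lbx1 (0.400), and Mnx1 and Pou4f1 the farthest (1.62). Among 13694 protein-coding genes tested, Hoxa5 was nearest to Lhx1 (0.309), Hoxa3 to Evx1 (0.295) and Zfp503 to Lhx5 (0.226). Barhl2, a factor of dorsal interneurons, was nearest to Lbx1 (0.255) and Tox2 to Tlx3 (0.270). The receptor gene Gfra1, expressed by motor neurons, was nearest to Isl1 (0.152), Pou3f4 to Pou4f1 (0.190), Ngfr to Lhx3 (0.383) and Nkx1-2 to Lhx4 (0.146), and Ascl3, absent from the controls, to Mnx1 (0.136).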

How the data were processed

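RNA-seq libraries of sorted E13.5 NPCs (3 control, 3 Ybx1-KO) were analysed from the raw counts per gene symbol that the authors deposited, 1 table a library, made with HTSeq 0.6.1p1 per the labels on mm10 and GRCm38.p5. The kit was stranded; the aligner and the strand setting of the counting are not given in the sources used here. No normalization or filter had been applied, no columns were left unused (0), and the counter's tallies outside genes stayed out of library totals. Symbols were matched to GENCODE M21 on GRCm38 for lengths and overlaps: 47624 by symbol, 360 by an older symbol, 3749 not matched. Libraries were grouped by the genotype label.

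Counts were scaled by TMM and tested with edgeR 4.0.16 in R 4.3.3 (quasi-likelihood test, Benjamini-Hochberg over 21330 genes whose mean passed 1 FPKM in a group, called at adjusted p below 0.05 and fold change above 1.5). SE is the log2 fold change divided by the root of F. The common biological coefficient of variation was 0.800. Alternatives were RLE and total-count scaling, DESeq2 1.42.0, limma 3.58.1 (voom), other filters and leaving out each library; 2 more were added after seeing the data. The fit was checked on simulated counts. The members, the gene lists and the tests were chosen with earlier results of these data known. Genes named are the 10 factors, Ybx1, the 3 largest changes of each list, the nearest profiles of each factor and overlapping antisense genes; Sox2 was named as the sorting marker, and some genes that this rule would name are not reported here. Depth gives limits for counting error only: 3 counts are 0.138 to 0.4197 TMM-normalized CPM.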

Additional observations from a re-analysis of the deposited data

Results flagged for a closer look

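Ybx1-KO 3 had 8.24 read pairs outside genes for each count on genes, against 1.41 to 2.00 in the other 5 libraries, a signal outside the counts that were tested. Of its read pairs 59.5% lay outside genes, against 30.6% to 46.7% in the others, and 39553 genes had a count, against 19649 to 30482. The receptor genes summed to 4554 CPM in it and to between 22.5 and 95.9 CPM elsewhere. In TMM-normalized CPM it was, among the 10 factors, the lowest knockout for Isl1, Lhx3, Lhx1, Lhx5, Lbx1, Tlx3 and Pou4f1 and the highest for Mnx1. In FPKM, scaled by total counts alone, Isl1 was instead lowest in Ybx1-KO 2 (5.35 against 7.56 FPKM in Ybx1-KO 3). On that scale Ybx1-KO 3 was also the highest knockout for Lhx4 (3.05 FPKM) and Evx1 (5.20 FPKM). The part of Ybx1-KO 3 in the levels of the factors was not tested.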

How the results depend on the processing

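No paired analysis was possible because the replicate numbers used here were given in sample order and pair nothing, and the last numbers in the sample titles have only 1 value in common between the groups. Over the planned and added alternatives that could be fitted, the log2 fold change kept its sign for Mnx1 (17 fits), Lhx3 (19) and, in all 20 fits each, Lhx4, Lhx1, Lhx5, Evx1, Lbx1 and Tlx3. Pou4f1 (-0.07) turned to 0.0011 with CPM above 1 in at least 3 libraries, 0.74 without control 2, 0.35 without Ybx1-KO 3 (0.74 and 0.31 on the genes of the 6-library test) and 1.11 with both left out. Isl1 turned to -0.0125 without control 1 (-0.0075 on the genes of the 6-library test). With 1 library left out Isl1 ranged from -0.0125 to 0.92 and Pou4f1 from -0.63 to 0.74. The cause was not tested. The median over the factors ranged from 0.83 to 2.81 when 1 library was left out (2.81 without control 2, also on the genes of the 6-library test) and was 2.85 with both left out, where the summed log2 ratio was 2.22 (0.40 to 1.84 with 1 left out, 0.76 with all) and 3 factors were called instead of 0. The median over all genes was 0.31 by TMM, 0.40 by RLE, 0.51 by total counts and 0.70 with no filter. Genes called higher and lower numbered 0 and 0 in edgeR's test (2394 at an unadjusted p below 0.05, 1655 by limma-voom with 0 called, 2817 by DESeq2), 118 and 96 by DESeq2, 113 and 80 with no filter, 57 and 59 with both left out, and 0 to 531 and 0 to 247 with 1 library left out (531 and 165 without Ybx1-KO 1, 478 and 247 without Ybx1-KO 2, 29 and 44 without control 2). On the genes of the 6-library test these were 29 and 42 without control 2, 17 and 11 without Ybx1-KO 1, 283 and 137 without Ybx1-KO 2, and 29 and 22 without Ybx1-KO 3. Ybx1 (-2.49) was called by DESeq2 (-2.44, adjusted p 0.0236), with no filter (-2.52, adjusted p 0.0215 in edgeR's test), and without Ybx1-KO 1 (-3.49) or Ybx1-KO 2 (-2.41), but on the genes of the 6-library test the call without Ybx1-KO 2 was lost (-2.40, adjusted p 0.0502). It ranged from -3.49 to -1.95 with 1 library left out. Depth limits Mnx1 and Lhx3 most, with 3 to 7 and 5 to 36 counts in controls. It also limits Evx1 without control 2, with 5 and 13 counts in controls 1 and 3.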
